A study of Homo sapiens with 27 samples.

Results

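A group of 9 genes of haemostasis and the plasminogen system was followed across 27 libraries of an endothelial cell line: VWF, THBD, TFPI, TFPI2, PROCR, PLAU, PLAUR, PLAT and F2R. They were chosen by function from the count table, in which all 9 were found among 14008 genes, and all 9 passed the filter on low counts in every fit. The cells were teloHAEC, aortic endothelial cells of human origin that telomerase has immortalised, collected 2 days after Cas9 ribonucleoprotein had been electroporated into 150000 cells per replicate. Set A held 4 libraries with guides flanking a candidate enhancer of SMAD3 (SMAD3 deletion), 4 with the HPRT guide of the positive control (HPRT-targeted) and 4 with a non-targeting guide (negative control). Set B held 4 libraries with guides flanking a candidate enhancer of LDAH, formerly C2orf43 (LDAH deletion), 7 negative control libraries and 4 that were HPRT-targeted. The library titles name a set for the negative control and HPRT-targeted libraries only. The set of each deletion group was thus not read from its titles. This placing was not checked here, and every comparison of a deletion group with controls depends on it. Every group had thus received Cas9 and an electric pulse, and only the non-targeting guide was meant to cut nowhere. Each library came from a bulk culture of 1 line, not from an edited clone, and the share of edited alleles was not analysed here. The comparisons asked whether any of these genes differed after a deletion or after HPRT cutting, and whether the negative controls of the sets differed.

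Endothelial cells keep blood fluid and also prepare for its clotting. THBD (thrombomodulin) binds thrombin and turns it towards activation of protein C, PROCR (the endothelial protein C receptor) presents protein C to that complex, and TFPI blocks the tissue factor pathway at its start. VWF, stored in Weibel-Palade bodies, tethers platelets to injured vessel walls, and F2R (protease-activated receptor 1) is the thrombin receptor of endothelial cells. PLAT (tissue plasminogen activator) and PLAU (urokinase) convert plasminogen to plasmin, which dissolves fibrin, while PLAUR holds urokinase at the cell surface.

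Promoter sequence is shown for the 3 members whose levels the comparisons below turn on and for which a sequence was at hand, PROCR, PLAU and PLAUR. PROCR and PLAU were the 2 members with an unadjusted p under 0.05 for LDAH deletion against the negative control, and PLAUR was 1 of the 3 called between the sets. The RefSeq table for GRCh38.p14 held 5 of the 9 members. Each run below is the 250 bases before the annotated start, 5′ to 3′ along the gene's strand, and capitals mark matches to the motifs searched on both strands: TATAAA for the TATA box, GGGCGG for the GC box, CACCC for the core bound by KLF factors, TGANTCA for the AP-1 element, the NF-kB element, and GTCTAGAC for the SMAD palindrome.
PROCR, chr20:35171822-35172071, forward strand: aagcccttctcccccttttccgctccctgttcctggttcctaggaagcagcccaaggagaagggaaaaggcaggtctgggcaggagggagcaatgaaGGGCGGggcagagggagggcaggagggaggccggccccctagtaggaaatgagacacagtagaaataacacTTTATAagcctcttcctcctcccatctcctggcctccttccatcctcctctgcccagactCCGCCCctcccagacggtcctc
PLAU, chr10:73910882-73911131, forward strand, nearer the coding sequence of the pair of starts listed: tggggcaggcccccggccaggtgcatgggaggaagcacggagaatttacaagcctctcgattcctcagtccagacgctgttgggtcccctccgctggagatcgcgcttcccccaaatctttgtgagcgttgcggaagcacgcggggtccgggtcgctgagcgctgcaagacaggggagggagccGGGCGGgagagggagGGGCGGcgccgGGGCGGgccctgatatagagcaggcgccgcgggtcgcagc
PLAUR, chr19:43670170-43670419, reverse strand: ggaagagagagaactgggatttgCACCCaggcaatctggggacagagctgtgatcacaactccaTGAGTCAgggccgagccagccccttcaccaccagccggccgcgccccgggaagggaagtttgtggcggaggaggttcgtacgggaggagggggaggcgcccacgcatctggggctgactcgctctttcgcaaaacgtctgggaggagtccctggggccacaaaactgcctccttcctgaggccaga
The PROCR window held a TATA box match whose first base lay 82 bases before the start and GC box matches at 153 and 22 bases. The PLAU window held 3 GC box matches, at 66, 51 and 40 bases, and the window of its other listed start (chr10:73910360-73910609) held no match to any of the 6 motifs. The PLAUR window held a CACCC match at 227 bases and an AP-1 match at 186 bases. None of the matches shown overlaps another. Among 35116 promoter windows of this length, 42.6% held the GC box, 54.7% CACCC, 10.7% the TATA box, 6.57% the AP-1 element, 1.4% the NF-kB element and 0.182% the SMAD palindrome, so the GC box and CACCC matches are common ones. A match is a stretch of letters and was not tested for binding.

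Libraries of set A held 4.76 to 7.75 M counts in total, those of set B 3.43 to 6.41 M, and levels are given as CPM, a gene's count relative to its library's total, with trimmed-mean (TMM) scaling over all 27 libraries. These libraries count tags at the 3′ end of messenger RNA, so a level is not divided by transcript length. In 7 libraries the whole expression profile differed from that of the set's other libraries, and these are called the libraries that stand apart: 2 of set A (SMAD3 deletion replicate 4 and HPRT-targeted replicate 3) and 5 of set B (negative control replicates 6 and 7, HPRT-targeted replicates 2 and 4, and replicate 4 of the LDAH deletion). Within their set they correlated with a typical library at 0.924 to 0.960 (set A) or 0.858 to 0.879 (set B), where the others reached 0.977 to 0.981 and 0.928 to 0.953, and counts of ribosomal protein genes made up 14.9% to 17.3% of their total, against 9.35% to 14.5%. All 12 endothelial marker genes were counted, with summed levels between 1171 and 2360 CPM. Of the markers of other cells, 0 of 6 platelet, 0 of 5 hepatocyte and 0 of 3 epithelial genes had a row in the table, as against 1 of 9 smooth muscle and fibroblast genes (ACTA2) and 1 of 5 leukocyte genes (CD14). The targeted genes did not pass the test: SMAD3 was at 98.5 ± 15.9 CPM (SD, n = 4) in its deletion group against 134 ± 9.54 in the negative control, LDAH at 7.08 ± 3.36 against 12.04 ± 3.43 (n = 7), and HPRT1 at 34.1 and 41.5 CPM in the HPRT-targeted groups of sets A and B against 42.8 and 48.9. Nothing in the labels says that replicates were separate cultures before electroporation, so the p-values speak only of the spread among these libraries, which may be technical.

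PLAT was the most abundant of the 9 genes, with a mean of 1492 CPM over the 27 libraries, the 86th highest mean in the table. PROCR followed at 315 CPM, TFPI at 273, F2R at 230, PLAUR at 149, THBD at 99.5 and PLAU at 79.9. TFPI2, a Kunitz-type inhibitor related to TFPI that is secreted into the matrix, and VWF were nearly silent, at 3.99 and 2.81 CPM. The lowest PLAT library, at 1145 CPM, lay above the highest library of every other member, which was 495 CPM for TFPI. All other neighbours in this order overlapped over the libraries, PLAU and TFPI2 through 1 PLAU library. In cultures of many cells, fewer cells with a transcript and less of it per cell cannot be told apart.

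**Figure D1:**
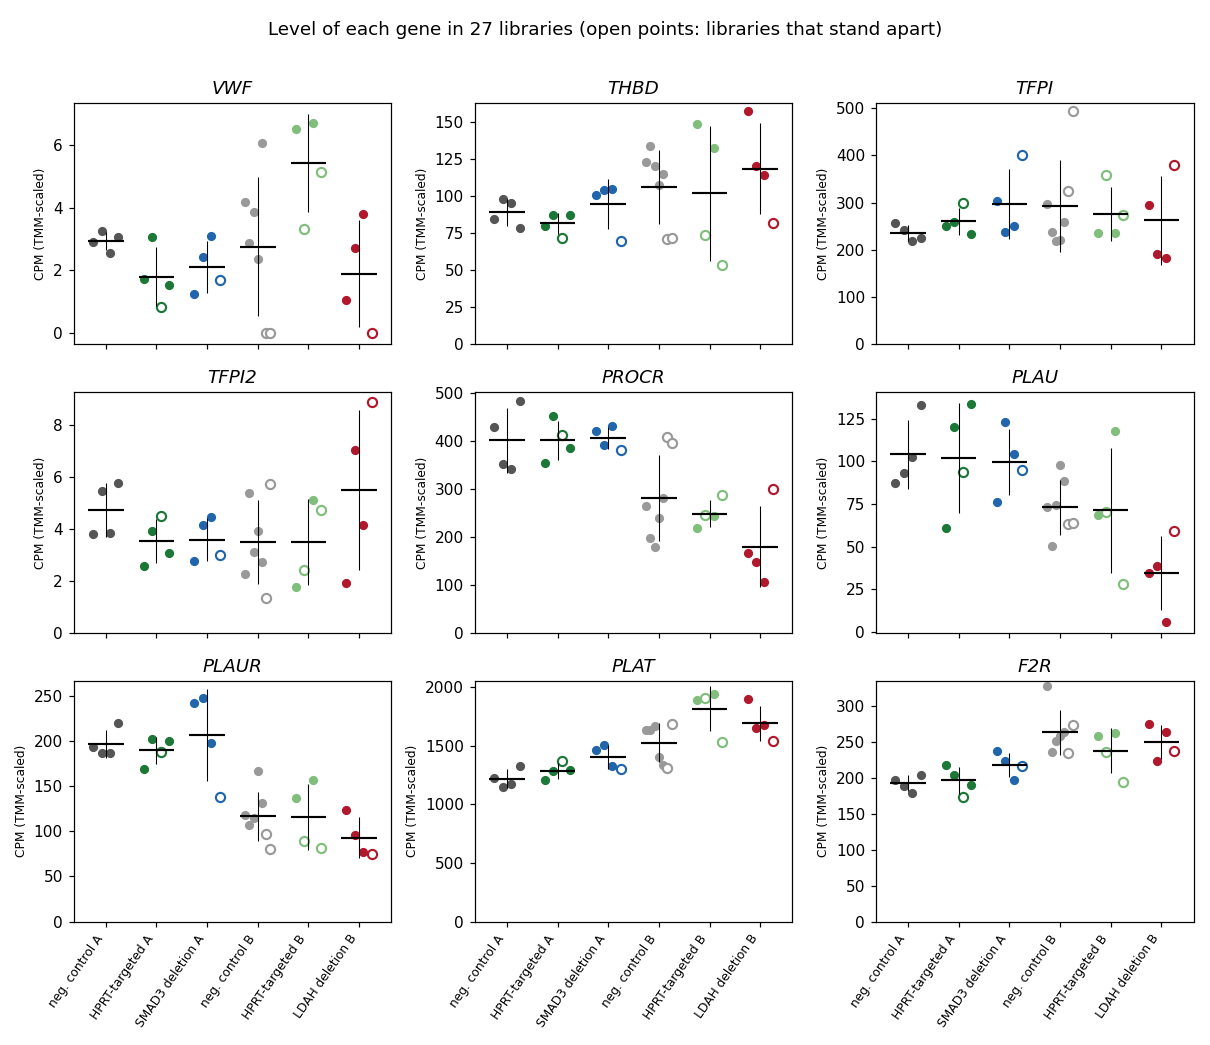
Level of each of the 9 genes (y axes, CPM on linear scales that include 0) in every library of the 6 groups. Filled points are libraries, open points the 7 that stand apart, horizontal bars group means and vertical lines ± 1 SD; PLAU and PROCR are lowest in the LDAH deletion group, and PLAUR is lower in the groups of set B than in those of set A.

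Libraries of a group varied very unequally from gene to gene. On the log2 scale, the SD within groups of set A was 0.09 for PLAT, and of set B 0.15, with 0.11 and 0.17 for F2R. All were well under the median of all genes, 0.28 and 0.53. The mean levels of PLAT and F2R lay above those of 99.4% and 94.5% of genes in the table. Their spread was not compared with that of genes of like level. PLAU varied more than the median of all genes, with 0.37 and 0.86, and VWF with 0.47 and 1.51. For VWF, with at most 42 counts in any library, counting error alone limits the comparison. THBD, TFPI, PROCR and PLAUR lay between 0.17 and 0.24 in set A and between 0.37 and 0.48 in set B.

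The anticoagulant genes THBD and TFPI were expressed in all groups. THBD lies on chromosome 20 (23045633 to 23049741, reverse strand, GRCh38) and is protein-coding, as are all 9 genes. Its group means fell in the order LDAH deletion (119 ± 31.01 CPM, n = 4), negative control B (106 ± 25.04, n = 7), HPRT-targeted B (102 ± 45.7, n = 4), SMAD3 deletion (94.8 ± 16.9, n = 4), negative control A (89.1 ± 9.18, n = 4) and HPRT-targeted A (81.5 ± 7.27, n = 4). No neighbours in that order differed by more than the larger of their SDs. TFPI lies on chromosome 2 (187464230 to 187565760, reverse strand), and its means ran from 298 ± 74.4 CPM in the SMAD3 deletion group through 293 ± 97.2 in negative control B, 275 ± 57.9 in HPRT-targeted B, 262 ± 94.3 in the LDAH deletion group and 260 ± 28.4 in HPRT-targeted A to 235 ± 17.6 in negative control A, again with no gap between neighbours larger than the SD. TFPI2, on chromosome 7 (93885396 to 93890991, reverse strand), was counted 7 to 44 times per library and its group means lay between 3.49 and 5.49 CPM.

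PROCR, on chromosome 20 (35172073 to 35216240, forward strand), split by set. Its means were 406 ± 23.3 CPM in the SMAD3 deletion group, 401 ± 41.1 in HPRT-targeted A and 400 ± 66.96 in negative control A, then 280 ± 89.8 in negative control B, 247 ± 28.4 in HPRT-targeted B and 179 ± 84.3 in the LDAH deletion group. The step from set A to set B was the only gap between neighbours larger than their SDs. The 3′ end of PROCR is overlapped on the opposite strand by MMP24OS, which had 5389 counts over all libraries, and the sources used here do not say whether reads were assigned by strand.

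VWF, on chromosome 12 (5948874 to 6124770, reverse strand), was highest in HPRT-targeted B, at 5.42 ± 1.56 CPM, and lay between 1.79 and 2.94 CPM on average in the other 5 groups. It had 0 counts in 3 libraries, LDAH deletion replicate 4 and negative control B replicates 6 and 7. This allows levels of up to 0.875, 0.601 and 0.655 CPM there, taken without TMM scaling. All 3 belong to the 7 that stand apart. F2R, on chromosome 5 (76716043 to 76735781, forward strand), had means of 263 ± 31.5 CPM in negative control B, 249 ± 23.4 in the LDAH deletion group, 238 ± 31.1 in HPRT-targeted B, 218 ± 16.8 in the SMAD3 deletion group, 196 ± 19.1 in HPRT-targeted A and 192 ± 10.8 in negative control A. The groups of set B thus had the higher means.

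In the plasminogen system, PLAT lies on chromosome 8 (42175233 to 42207724, reverse strand). Its means fell from 1815 ± 193 CPM in HPRT-targeted B through 1690 ± 150 in the LDAH deletion group, 1523 ± 167 in negative control B, 1399 ± 102 in the SMAD3 deletion group and 1285 ± 66.3 in HPRT-targeted A to 1217 ± 79.5 in negative control A. PLAU lies on chromosome 10 (73909177 to 73917497, forward strand), where C10orf55 overlaps its 3′ end on the opposite strand with 126 counts in all. PLAU means were 104 ± 20.3 CPM in negative control A, 102 ± 32.1 in HPRT-targeted A and 99.5 ± 19.5 in the SMAD3 deletion group, then 73.1 ± 16.1 in negative control B, 71.2 ± 36.7 in HPRT-targeted B and 34.6 ± 21.9 in the LDAH deletion group. PLAUR, on chromosome 19 (43646095 to 43670547, reverse strand), had means of 206 ± 50.7, 197 ± 15.6 and 189 ± 15.3 CPM in the SMAD3 deletion, negative control and HPRT-targeted groups of set A, and in set B of 116 ± 27.4 in the negative control, 116 ± 36.6 after HPRT targeting and 92.9 ± 22.7 after LDAH deletion. PLAU and PLAUR thus had their lowest mean in the LDAH deletion group, as did PROCR. The PLAUR libraries of that group overlapped those of both other groups of set B.

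LDAH deletion was compared with the negative control of set B to ask what followed loss of that enhancer. With all 15 libraries of the set, 0 of the 9 genes passed the test in either direction, and neither did any other gene (0% of 11769, edgeR quasi-likelihood test, adjusted p under 0.05). DESeq2 called 14 genes of the table and limma voom with quality weights 0, and neither called any of the 9. Unadjusted p-values were under 0.05 for 2 of the 9 genes, both lower, against 4.61% of all genes in either direction and 3.33% lower. The median log2 fold change was -0.16 over the 9 genes and 0.01 over all genes. The genes with the small p-values were PLAU and PROCR. Against HPRT-targeted B the edgeR test also gave 0 calls of 9 and 0% of all genes, and 1 of the 9 (PLAU) had an unadjusted p under 0.05, against 4.22%.

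Of the 9 genes, the urokinase gene PLAU had the largest difference from the negative control, while against HPRT-targeted that of VWF was larger in size (-1.48 ± 1.09). PLAU was at 34.5, 38.7, 6.12 and 59.2 CPM in LDAH deletion replicates 1 to 4, and between 50.7 and 98.1 CPM, with a median of 73.5, in the 7 negative control libraries. HPRT-targeted B replicates 1 to 4 had 68.7, 70.3, 118 and 28.1 CPM. Replicates 1 to 3 of the deletion group lay under every negative control library, replicate 4 did not, and replicate 4 is the deletion library that stands apart. The log2 fold change against the negative control was -1.08 ± 0.44 (SE; 95% interval -2.02 to -0.15; unadjusted p = 0.0251, adjusted p = 0.990), and against HPRT-targeted it was -1.05 ± 0.48 (adjusted p = 0.948).

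Against the negative control, the protein C receptor had the same arrangement of libraries. PROCR was at 165, 146 and 105 CPM in LDAH deletion replicates 1 to 3 and at 300 CPM in replicate 4. The negative control libraries lay between 178 and 407 CPM with a median of 264, and the HPRT-targeted libraries had 217, 244, 242 and 286 CPM. The lowest 3 deletion libraries were again under every negative control library and the one that stands apart was not. Unlike in PLAU, those 3 also lay under every HPRT-targeted library. The log2 fold change was -0.65 ± 0.28 (95% interval -1.24 to -0.05; unadjusted p = 0.0342) against the negative control and -0.47 ± 0.31 (adjusted p = 0.948) against HPRT-targeted.

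Without the 7 libraries that stand apart, PLAU and PROCR passed the test against the negative control, a setting added after the data had been seen. PLAU was then lower by -1.55 ± 0.34 on the log2 scale (adjusted p = 0.0145) and PROCR by -0.75 ± 0.16 (adjusted p = 0.00972), in a comparison of 3 libraries with 5 that called 1.74% of 12153 genes and 1.57% as lower. Against the 2 remaining HPRT-targeted libraries PLAU fell by 1.83 ± 0.40 (adjusted p = 0.0276, 0.634% of genes called), while PROCR differed by -0.74 ± 0.19 without passing (adjusted p = 0.0790). For both genes the deletion libraries lay below all libraries of either control. Such separation downwards was seen in 2 of the 9 genes against the negative control, where 5.42% of all genes had it, and in 4 of the 9 against HPRT-targeted (PLAUR and VWF as well), where 13% had it. These calls rest on few libraries. Against the negative control, both calls were lost when negative control replicate 5 was left out as well (PLAU adjusted p = 0.0540, PROCR 0.0512). The PLAU call was lost without negative control replicate 4 (0.0550), and the PROCR call without deletion replicate 3 (-0.57, adjusted p = 0.122). Against HPRT-targeted, the PLAU call was lost without HPRT-targeted replicate 3 (adjusted p = 0.500). Without deletion replicate 3, PLAU stayed lower by -1.07 (adjusted p = 0.0373).

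The other 7 genes did not pass against the negative control of set B, with or without the libraries that stand apart. With all libraries, the log2 fold changes were 0.16 ± 0.27 for THBD, -0.16 ± 0.26 for TFPI, 0.65 ± 0.52 for TFPI2, -0.52 ± 0.97 for VWF, -0.08 ± 0.14 for F2R, 0.15 ± 0.12 for PLAT and -0.33 ± 0.23 for PLAUR. For F2R and PLAT the 95% intervals were the narrowest of these, -0.38 to 0.21 and -0.11 to 0.40. The PLAT interval still holds 0.32, its called difference between the negative controls of the sets described below. For VWF the interval ran from -2.57 to 1.53. Without the libraries that stand apart, the PLAUR value was -0.38 ± 0.16 (adjusted p = 0.302) against the negative control and -0.58 ± 0.20 (adjusted p = 0.230) against HPRT-targeted.

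**Figure D2:**
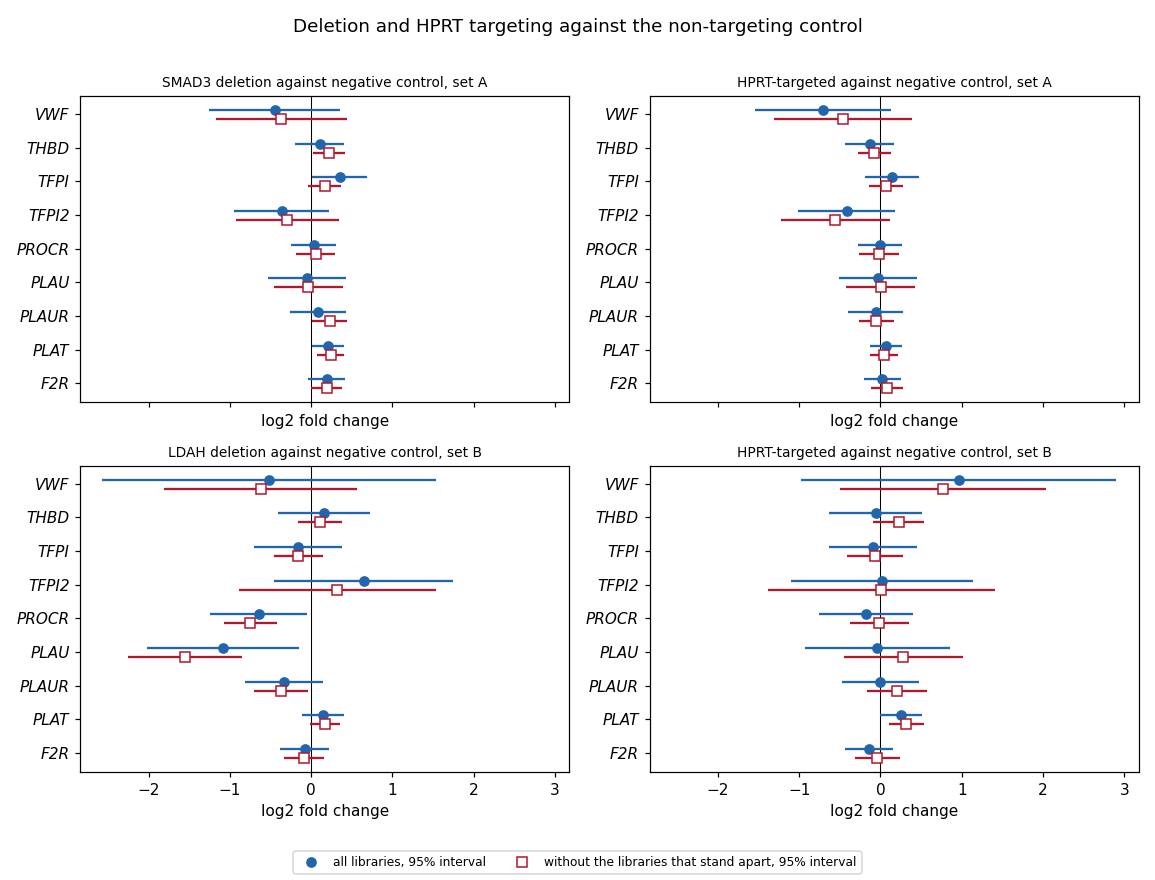
Log2 fold change of each gene (x axis) in the SMAD3 deletion, LDAH deletion and HPRT-targeted groups against the negative control of their set. Filled blue points use all libraries and open red squares leave out those that stand apart, with 95% intervals as lines; PLAU and PROCR lie to the left of 0 in the LDAH panel, at -1.08 and -0.65 with all libraries.

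SMAD3 deletion was compared with the negative control of set A in the same way. Again 0 of the 9 genes and 0% of 11467 genes passed (edgeR), while DESeq2 called 3 genes and limma voom 2, none of them among the 9. Unadjusted p-values were under 0.05 for 2 of the 9 genes, both higher, against 6.78% of all genes in either direction and 4.05% higher, and the median log2 fold change was 0.08 against 0.00. These genes were PLAT and TFPI. PLAT was at 1466, 1505, 1322 and 1303 CPM in the deletion libraries and at 1223, 1145, 1174 and 1326 in the negative control. The groups overlapped, and the log2 fold change was 0.21 ± 0.09 (unadjusted p = 0.0368, adjusted p = 0.730). TFPI was at 302, 238, 250 and 401 CPM against 257, 243, 218 and 224, with a log2 fold change of 0.35 ± 0.16 (adjusted p = 0.730). Its highest library, replicate 4, stands apart, and without that library alone the TFPI value was 0.18.

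PROCR and PLAU, picked for their unadjusted p-values after LDAH deletion, showed values near 0 after SMAD3 deletion. That choice favours a difference between the deletion effects for these genes, so the values below only describe them. PROCR differed by 0.03 ± 0.13 (95% interval -0.24 to 0.30) and PLAU by -0.05 ± 0.22 (-0.53 to 0.43). The difference between the effects, SMAD3 deletion minus LDAH deletion, was 0.67 ± 0.33 for PROCR and 1.03 ± 0.54 for PLAU, and it passed the edgeR test for 0 of the 9 genes (0% of 12055 genes, and 0 of 9 at an unadjusted p under 0.05, against 3.64%). DESeq2 and voom called 0 of the 9 as well. Without the libraries that stand apart it was 0.82 ± 0.21 for PROCR (adjusted p = 0.0627) and 1.54 ± 0.45 for PLAU (adjusted p = 0.131), with 0.55% of genes called. The intervals for PROCR and PLAU with all libraries, -0.02 to 1.35 and -0.09 to 2.15, run from about no difference to a large one. The other members after SMAD3 deletion were THBD at 0.10 ± 0.14, F2R at 0.19 ± 0.11, PLAUR at 0.08 ± 0.16, TFPI2 at -0.37 ± 0.27 and VWF at -0.45 ± 0.38.

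Against HPRT-targeted A, the SMAD3 deletion group again gave 0 edgeR calls among the 9 genes (0% of 11467; 0 of 9 at an unadjusted p under 0.05, against 5.83%), with log2 fold changes from -0.02 for PLAU to 0.26 for VWF. THBD separated the groups when the libraries that stand apart were left out, with deletion libraries at 100.7, 104 and 105 CPM, negative control libraries from 78.2 to 98.0 and HPRT-targeted libraries at 80.1, 87.2 and 87.0. Its log2 fold changes were then 0.22 ± 0.10 (adjusted p = 0.427) against the negative control and 0.30 ± 0.10 (adjusted p = 0.188) against HPRT-targeted, and neither passed. Separation upwards was seen in 1 of the 9 genes against the negative control (4.8% of all genes) and in 2 of the 9, THBD and PLAT, against HPRT-targeted (8.38%). Deletion replicate 4, at 69.6 CPM, lay under all of these libraries.

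HPRT targeting, the positive control, moved none of the 9 genes past the threshold in set A, in set B or in both sets fitted together (edgeR, 0% of 11467, 11769 and 11836 genes), and DESeq2 and voom called 0 of the 9 there. At an unadjusted p under 0.05 it was 0 of 9 in set A (2.24% of all genes), 0 of 9 in set B (1.75%) and 1 of 9 in both. PLAT had the smallest p-value of the 9 in the joint fit, with 0.17 ± 0.08 on the log2 scale (unadjusted p = 0.0356, adjusted p = 0.937), where 3.19% of genes had an unadjusted p under 0.05. It differed by 0.07 ± 0.09 in set A and by 0.25 ± 0.12 in set B. In set B, HPRT-targeted libraries were at 1885, 1908, 1939 and 1527 CPM and the negative control libraries between 1307 and 1684, so 3 of 4 lay above all controls. The low library, replicate 4, is among those that stand apart. Without these, PLAT differed by 0.32 ± 0.10 (adjusted p = 1.00), and PLAT and VWF were the 2 of 9 genes with separation upwards, against 4.11% of all genes. The remaining joint values ran from -0.18 ± 0.30 for TFPI2 to 0.28 ± 0.55 for VWF. The joint value of VWF pools opposite signs, with set A at -0.71 ± 0.39 and set B at 0.96 ± 0.92 (difference 1.66 ± 1.11, unadjusted p = 0.146). The HPRT effect did not differ between the sets for any of the 9 genes at the threshold (edgeR, 0% of 12055 genes; 0 of 9 at an unadjusted p under 0.05, against 1.32%), and for PLAT the difference was 0.17 ± 0.15.

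The negative controls of the sets did differ. PLAUR was lower in set B, and F2R and PLAT were higher, so 3 of the 9 genes passed the test, where 9.61% of 12055 genes did (5.12% higher and 4.49% lower). The sets differ in the labels by name and library numbers alone, and any difference in culture, handling or sequencing cannot be told apart from the set. The labels' numbers also run from 10 to 13 for SMAD3 deletion and from 26 to 33 for the controls of set A, and from 50 to 54 for LDAH deletion and from 55 to 67 for the controls of set B, without saying what they mean. Each deletion group thus holds a block of numbers apart from its controls, and anything in handling that follows these numbers cannot be told apart from the deletion.

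The urokinase receptor gave the largest of these differences. PLAUR was at 194, 186, 187 and 219 CPM in negative control A and between 80.8 and 167 CPM, with a median of 114, in negative control B. The groups did not overlap, which held for 6.69% of genes in that direction, and the log2 fold change was -0.75 ± 0.19 (95% interval -1.15 to -0.36, adjusted p = 0.0119). The thrombin receptor F2R moved the other way, from 197, 189, 179 and 204 CPM in set A to between 234 and 327 CPM, with a median of 258, in set B. These groups did not overlap either (5.21% of genes in that direction), and the log2 fold change was 0.45 ± 0.11 (adjusted p = 0.0109). PLAT, at 1223, 1145, 1174 and 1326 CPM against 1307 to 1684 with a median of 1634, overlapped slightly and rose by 0.32 ± 0.10 (adjusted p = 0.0390).

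Some of these calls hung on 1 library. The PLAT call was lost when any 1 of the 4 negative control A libraries was left out (adjusted p from 0.0551 to 0.144), and also without negative control B replicate 7 (0.0615). The F2R call was lost without negative control A replicate 3 (0.42, adjusted p = 0.0534), and the PLAUR call without negative control A replicate 4 (-0.70, adjusted p = 0.0537). Without the libraries that stand apart PLAUR, F2R and PLAT passed, and so did PROCR (-0.78 ± 0.13, adjusted p = 3.99e-05) and THBD (0.43 ± 0.11, adjusted p = 0.00237), where 28.2% of genes were called. With all libraries PROCR had -0.52 ± 0.22 (adjusted p = 0.149) and THBD 0.25 ± 0.23 (adjusted p = 0.588). TFPI, TFPI2, PLAU and VWF did not pass in either setting.

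**Figure D3:**
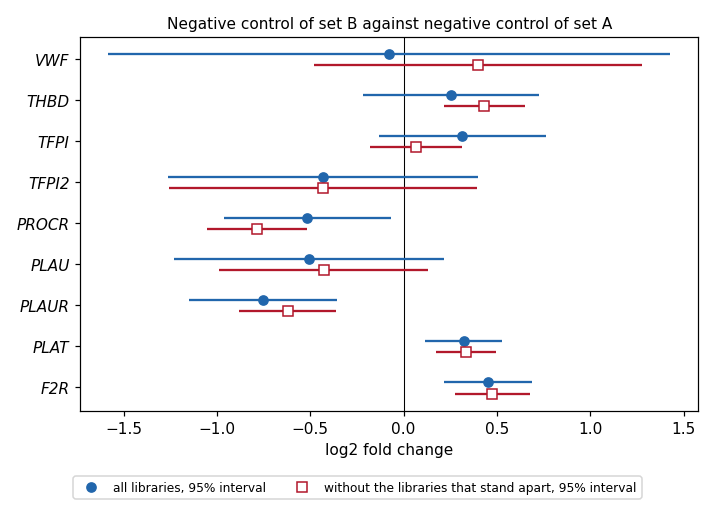
Log2 fold change (x axis) of each gene between the negative control of set B (n = 7) and that of set A (n = 4), with 95% intervals; open red squares leave out negative control B replicates 6 and 7 and the other libraries that stand apart. With all libraries PLAUR lies at -0.75, F2R at 0.45 and PLAT at 0.32.

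The 7 libraries that stand apart shifted several members in a common direction, whatever their group. Each was set against the mean of the other libraries of its group on the log2 scale. VWF was lower in 7 of 7, by a median of -1.01. A prior count of 2 sets the VWF values of the 3 libraries with 0 counts. THBD was lower in 7 of 7, by a median of -0.73, and PLAUR in 7 of 7 (-0.84 to -0.02, median -0.64). TFPI was higher in 7 of 7, by a median of 0.60, and PROCR in 6 of 7, by 0.32. PLAT was lower in 5 of 7 (-0.32 to 0.14, median -0.13) and F2R in 6 of 7 (-0.42 to 0.04, median -0.14). TFPI2 was higher in 4 and lower in 3. In PROCR the 6 rises ran from 0.06 to 1.13, with 4 of them at 0.32 or more, all in set B, and SMAD3 deletion replicate 4 was lower by 0.12. In PLAU, 6 of 7 were lower but LDAH deletion replicate 4 was higher by 1.53, and in PROCR that library was higher by 1.13. The part of these shifts in the LDAH comparison beyond leaving the libraries out was not tested. As the libraries were set apart by their whole profile, in which these genes have a small part, the values are a description without a test.

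**Figure D4:**
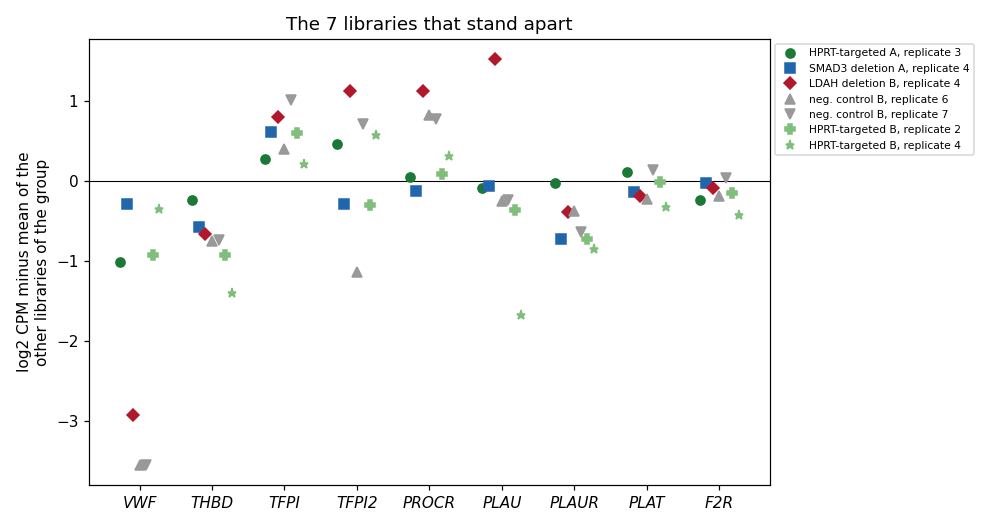
Log2 difference (y axis) of each of the 7 libraries that stand apart from the mean of the other libraries of its own group, for each gene; symbols give the library. VWF, THBD and PLAUR lie under 0 in all 7 and TFPI lies above 0 in all 7.

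Lists of related genes gave the setting of the 9 in these cells. Of 16 coagulation factors, 3 were counted, and F3 (tissue factor), F8 and F12 had group means of at most 2.96 CPM. Of 11 inhibitors of coagulation, 4 were counted, among them SERPIND1 (heparin cofactor II), with group means of 181 to 269 CPM, and ANXA5, with 288 to 456 CPM. Of 18 inhibitors, receptors and clearance factors of plasminogen activation, 13 were counted. ANXA2, which binds PLAT and plasminogen at the cell surface, reached group means of 2104 to 2895 CPM, so PLAT and this binding partner were both abundant. Of 18 genes of Weibel-Palade body cargo and release, 17 were counted, with levels that spread widely over the 27 libraries. ANGPT2, which is stored with VWF, had group means of 37.1 to 75.0 CPM, and CD63 a mean of 1637 CPM. SELP (P-selectin, another stored protein), UNC13D and MYRIP had means of 0.203, 0.612 and 2.12 CPM, below that of VWF.

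With all libraries, 0 of these related genes passed the edgeR test in any comparison within a set. For LDAH deletion against the negative control, the smallest p-values among the lists belonged to KLF2, the flow-induced factor known to raise THBD in endothelium, and to EGFL7, an endothelial marker. KLF2 was at 21.9 ± 15.01 CPM in the deletion group and 60.6 ± 15.2 in the negative control (log2 fold change -1.49 ± 0.34, adjusted p = 0.693), and without the libraries that stand apart at -2.13 (adjusted p = 2.4e-05). THBD in the same comparison was at 0.16 ± 0.27 with all libraries and at 0.11 ± 0.13 without those. EGFL7 was at 97.1 against 56.2 CPM (0.78 ± 0.21, adjusted p = 0.693, and 0.0465 without those libraries). CDH5, the endothelial cadherin, went the other way, at 154 against 250.1 CPM (-0.71, and -0.80 with adjusted p = 0.00503 without those libraries). Without them, EGFL7 and CDH5 were the called genes among 12 endothelial markers, 1 in each direction. Of all 12153 genes, 0.173% were called higher and 1.57% lower in that setting. TPST1, which sulfates tyrosines, had -0.57 ± 0.21 and ACTA2, a smooth muscle actin, 0.61 ± 0.28, neither of which passed. Of 11 tested genes of the plasminogen list, 6 had positive and 5 negative values (median 0.12), and of 15 Weibel-Palade genes 12 had positive values (median 0.12). Over all genes, 6084 of 11769 were positive (median 0.01). Without the libraries that stand apart the plasminogen list had a median of -0.02 and the Weibel-Palade list one of 0.16.

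Against HPRT-targeted B, KLF2 gave -1.21 ± 0.37 (adjusted p = 0.948; -2.06 and 0.000483 without the libraries that stand apart), CDH5 -0.59 (-1.02 and 0.00787 without those, where EGFL7 did not pass), ANGPT2 1.01 ± 0.40 and NT5E, which makes adenosine at the cell surface, -0.40 ± 0.18. For SMAD3 deletion against the negative control, the smallest p-values were those of HHEX, a homeobox factor of endothelium (0.43 ± 0.13), F2RL3 (protease-activated receptor 4, -0.56 ± 0.23) and PLA2G4A, which releases the precursor of prostacyclin (0.33 ± 0.15), with adjusted p from 0.702 to 0.730. Against HPRT-targeted A they were ANXA2 (-0.28 ± 0.10), PLA2G4A (0.36 ± 0.15), MCFD2 (-0.19 ± 0.09) and LMAN1 (0.22 ± 0.10); the last 2 form the cargo receptor for factors V and VIII. For HPRT targeting in both sets they were SERPIND1 (0.37 ± 0.15), PTGS2 (0.37 ± 0.15) and ACTA2 (0.42 ± 0.18), all with adjusted p = 0.937. In set A alone ACTA2 had 0.44 ± 0.18, and in set B alone SERPIND1 had 0.58 ± 0.23, PTGS2 0.59 ± 0.23 and EGFL7 0.50 ± 0.21. EGFL7 was the 1 of 12 tested endothelial markers with a positive value there, and the other 11 were negative (median -0.09 with all libraries and 0.07 without those that stand apart). For the difference between the deletion effects, KLF2 had 1.73 ± 0.40 (adjusted p = 0.691; 2.38 and 6.4e-05 without the libraries that stand apart), HHEX 0.55 ± 0.21, EGFL7 -0.67 ± 0.28 and RAB27A, a GTPase of Weibel-Palade bodies, -0.43 ± 0.17.

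Between the negative controls of the sets, where 9.61% of all genes passed, 3 list genes did so with all libraries, each lower in set B. They were 1 of 12 endothelial markers, 1 of 8 genes that process haemostatic proteins and 1 of 10 regulators: ESAM, an endothelial adhesion molecule (-0.57 ± 0.10, adjusted p = 0.000531), MCFD2 (-0.36 ± 0.10, adjusted p = 0.0168) and RELA, a subunit of NF-kB (-0.73 ± 0.23, adjusted p = 0.0462). Without the libraries that stand apart, calls went both ways, and over all genes 1808 of 12366 were then called higher and 1674 lower. Among endothelial markers 4 were then higher, KDR, CDH5, PECAM1 and ROBO4, and 2 lower, and among regulators 3 were higher and 1 lower. Among Weibel-Palade genes 3 were higher and 1 lower, and in the plasminogen list 2 were higher and 2 lower. ITGB3, a subunit of the vitronectin receptor, was at 57.4 against 32.3 CPM (0.83 ± 0.30, adjusted p = 0.0790). Summed endothelial markers ran from 1969 to 2038 CPM in negative control A and from 1171 to 2360 CPM in negative control B, so the ranges overlapped. ACTA2 ran from 25.6 to 34.3 CPM and from 14.0 to 34.6 CPM. Their part in the differences of PLAUR, F2R and PLAT was not tested.

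The genes whose library-to-library deviations were most like those of each member were found by correlation of log2 CPM after subtraction of the group means, in the 12 libraries of set A and the 15 of set B apart, and the smaller of the coefficients is given. They were CAMTA2 and MNT for VWF (0.84 each), ENAH and ANKHD1 for THBD (0.94 each), CYB5B (0.94) and TMEM106B (0.93) for TFPI, and CTSL (0.67) and NAP1L5 (0.66) for TFPI2. PROCR was most like MRPL39 (0.82) and COPS5 (0.81), PLAU like SNRPF and ZNF274 (0.77 each), and PLAUR like CDH5, the endothelial cadherin (0.86), and ARHGEF1 (0.85). PLAT was most like TTLL7 (0.75) and MOB1B (0.66) and F2R like PTGS1, the constitutive cyclooxygenase (0.75), and MAGED1 (0.74). The libraries share depth and the 7 that stand apart, and several values fell without those 7: that of THBD and ANKHD1 in set B went from 0.94 to 0.03 over 10 libraries, while that of PLAU and SNRPF went from 0.82 to 0.93.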

How the data were processed

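The deposited table held counts of reads per gene (integers, not normalised) made by the authors for 27 3' RNA-seq libraries of teloHAEC, sequenced for 86 cycles per the labels. Per the submitters' processing notes, edgeR 3.24.3 and the build hg38 were used; no aligner, counter or strand setting is given in the sources used here. The treatment of each library came from the labels, whose titles name no set for the deletion libraries, and 0 count columns were left out. Ensembl IDs were matched to current symbols (13053) or GENCODE 29 (861), and 94 had none. A count of 0 allows up to 0.387 to 0.875 CPM, taking 3 counts over the library total without TMM scaling. This covers counting error only because the reads carry no molecular identifiers. In 51 pairs of libraries of the same group, chi-square tests of the counts gave 3.03 to 78.9 per degree of freedom, so no library was a copy of another.

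From the counts, edgeR 4.0.16 (R 4.3.3) fitted group means by quasi-likelihood with TMM factors and filterByExpr, in set A, in set B, in the 19 control and HPRT-targeted libraries with the set as covariate, or in all 27; p-values were two-sided and adjusted by Benjamini-Hochberg over all genes at 0.05. SE is the log2 fold change divided by the square root of F, and intervals use the t distribution. The scripts were tested on simulated data. Libraries stood apart where their median correlation lay over 3 scaled median absolute deviations under the set's median. Alternatives were DESeq2 1.42.0, its size factors in edgeR, no filter, limma 3.58.1 voom with quality weights, leaving out each library and, added after seeing the data, leaving out the 7 libraries that stand apart, also with each further library in set B.

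The members and lists were chosen with earlier results of these data known. The text names all members; from the lists, called genes and up to 4 genes per comparison with the smallest unadjusted p under 0.05 and a mean of at least 10 CPM; the 2 genes most like each member; and the targets. Genes named for their level alone (F3, F8, F12, ANXA5, SERPIND1, ANXA2, ANGPT2, CD63, SELP, UNC13D, MYRIP, CD14), for a call without the 7 libraries that stand apart (CDH5, KDR, PECAM1, ROBO4) or overlap were chosen after their values were seen. A gene that the rule named is not reported here.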

Additional observations from a re-analysis of the deposited data

Results flagged for a closer look

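Of 54 combinations of gene and group, 4 had a library whose gap to the nearest other library exceeded Dixon's 95% critical value for its group's size, and chance gives about 1 in 20. THBD was at 69.6 CPM in SMAD3 deletion replicate 4, where the other libraries of the group had 101 to 105 CPM. TFPI was at 495 CPM in negative control B replicate 7, against 218 to 323 CPM in the other 6. PLAT was at 1527 CPM in HPRT-targeted B replicate 4, against 1885 to 1939 CPM in the other 3. These 3 libraries are among the 7 whose whole profile stands apart. F2R was at 327 CPM in negative control B replicate 1, against 234 to 273 CPM in the other 6, and that library does not stand apart by its profile. Without it, the F2R difference between the negative controls of the sets still passed the test.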

How the results depend on the processing

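With DESeq2, DESeq2's size factors, no filter, voom with quality weights and each library left out, the number of the 9 genes called stayed at 0 in every comparison within a set, in the joint HPRT comparison and in both differences of effects. Without the 7 libraries that stand apart it became 2 for LDAH deletion against the negative control (PROCR and PLAU) and 1 against HPRT-targeted (PLAU). Of all genes, 1.74% and 0.634% were called there. With 1 further library left out it ranged from 0 to 2 in each of these. Between the negative controls of the sets it was 3, where 9.61% of all genes were called. It became 5 without those 7 libraries, where the share of all genes called also rose, to 28.2%. With voom it was 5, and the share of all genes that voom called there is not given. It ranged from 1 to 3 with 1 library left out. Of 1665 alternative values of single genes, 7 lost and 24 gained a call, and 0 called values reversed; signs of values that were called in neither fit changed in 145. PLAU in the LDAH deletion ranged from -1.48 to -0.73 with 1 library left out, and PROCR from -1.02 to -0.46. No paired analysis was made because the labels state no pairs across groups and the replicate numbers follow accession order. The label numbers of the negative control and HPRT-targeted libraries alternate in set A and in part of set B, without a stated meaning. Low counts limit VWF and TFPI2 most, with at most 42 and 44 in a library.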
